A study of Mus musculus with 14 samples.

Results

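The genes described here are 7 Toll-like receptors (Tlr1, Tlr2, Tlr4, Tlr7, Tlr8, Tlr9 and Tlr13), the co-receptors Cd14 and Ly96, and the adaptor Myd88. These 10 genes were taken by symbol from a table of 43432 mouse genes, and all 10 were found and passed the filter on low values. RNA-seq had been performed on SiglecF-positive, CD11c-positive cells sorted from the lungs of 129S1 males, 10 to 12 weeks of age. Mice had received bleomycin (labelled dose 3 U/k) or water into the trachea. The 14 libraries fell into 5 groups: MHCII-low cells of control mice (2 libraries, numbered 1 and 3), and MHCII-low and MHCII-high cells taken 2 or 4 weeks after bleomycin (3 libraries each). No transgene or mutation is named for any group, MHCII-high cells of control mice were not analysed here, and the labels do not say whether replicates came from separate animals, so p-values measure only the spread between these libraries.

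Toll-like receptors are membrane receptors of the innate immune system that recognise molecules of microbes and of damaged cells. TLR1, TLR2 and TLR4 act at the cell surface, whereas TLR7, TLR8, TLR9 and TLR13 bind nucleic acids inside endosomes. All of the receptors listed here signal through the adaptor MyD88 to NF-kappaB, and the endosomal ones also reach interferon regulatory factors. Alveolar macrophages, the resident phagocytes of the air spaces, use these receptors to sense inhaled and tissue-derived ligands.

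Recovered read totals ranged from 15106415 to 88059675 per library, and mitochondrial ribosomal RNA took 3.12% to 28.99% of them. The sorted markers were present throughout: Siglecf was between 6461 and 9551 normalized counts in the 8 MHCII-low libraries and between 3056 and 4358 in the 6 MHCII-high libraries, and Itgax (CD11c) was between 25185 and 44133 over all 14 libraries. H2-Ab1, an MHC class II gene, was at 99.7 to 1276 normalized counts in the MHCII-low libraries and at 10625 to 25984 in the MHCII-high libraries. A normalized count is the number of reads of a gene divided by a scale factor of its library. In bulk RNA of this kind, fewer cells carrying a transcript and less of the transcript per cell cannot be told apart.

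Divided by exon length, the receptors covered a wide range of levels. Tlr2, the receptor for bacterial lipoproteins, was at 4740 ± 815 normalized counts per kb (SD, n = 14 libraries of all groups), ranked first in 13 of 14 libraries and stood above Tlr8 in all 14. Tlr8 and Tlr7, neighbouring genes of the family of RNA sensors, followed at 3036 ± 483 and 2850 ± 452 per kb, with Tlr8 the higher in 12 of 14 libraries. Tlr13, which senses bacterial ribosomal RNA, was at 2017 ± 556 per kb, Cd14 at 1964 ± 515 and Tlr4, the lipopolysaccharide receptor, at 1705 ± 241. These 3 did not keep an order, since Tlr13 exceeded Cd14 in 8 libraries and Cd14 exceeded Tlr4 in 8 libraries. Myd88 was at 682 ± 101 per kb, below Tlr4 in all 14 libraries. Ly96, which encodes the MD-2 protein that binds lipopolysaccharide together with TLR4, was at 280 ± 152 per kb, below Myd88 in 13 of 14 libraries. Tlr9 and Tlr1 were the lowest over all libraries, at 113 ± 140 and 38.9 ± 48.7 per kb, and for both the SD exceeded the mean, with the MHCII-high and MHCII-low libraries far apart.

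**Figure D1:**
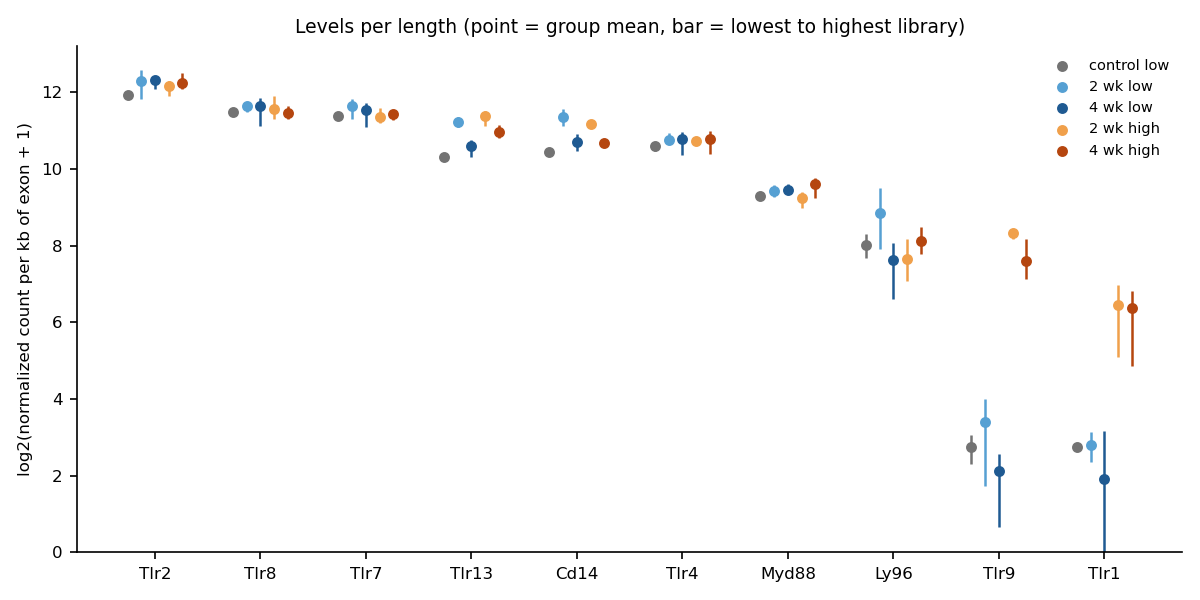
Level of each gene as log2 of the normalized count per kb of exon plus 1, by group; points are group means and bars run from the lowest to the highest library. Tlr2 and Tlr8 have the highest group means in all 5 groups, and Tlr9 and Tlr1 separate the MHCII-high groups from the MHCII-low groups.

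Of the 10 genes, Tlr9 (9:106222598 to 106226883 on GRCm38, plus strand), the endosomal receptor for unmethylated CpG DNA, differed most between MHCII-high and MHCII-low cells. At 2 weeks its values in MHCII-high replicates 1, 2 and 3 were 999, 1210 and 1116 normalized counts, and those in MHCII-low replicates were 40.3, 8.0 and 51.8. At 4 weeks the MHCII-high values were 1009, 521 and 487, and the MHCII-low values were 17.2, 2.0 and 16. The control MHCII-low libraries held 25.7 and 13.8, so every MHCII-high library lay far above every MHCII-low library and the groups did not overlap at either time.

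The ratio of group means for Tlr9 was 33.2 at 2 weeks and 57.3 at 4 weeks. On the log2(value + 1) scale the difference was 5.36 ± 0.73 (SE) at 2 weeks (limma, adjusted p = 0.000146) and 6.03 ± 0.73 at 4 weeks (limma, adjusted p = 2.26e-05), with MHCII-high above MHCII-low in 6 of 6 libraries. Averaged over both times it was 5.69 ± 0.52 (limma, adjusted p = 1.66e-07). The size leaned on the MHCII-low replicate with the fewest counts: without 2-week MHCII-low replicate 2 the 2-week difference was 4.57, and without 4-week MHCII-low replicate 2 the 4-week difference was 5.18, and both passed the threshold. In MHCII-high cells the Tlr9 means were 1109 ± 106 at 2 weeks and 672 ± 292 at 4 weeks, and this difference did not pass the test (log2 difference -0.80, 95% confidence interval -2.32 to 0.72, limma, adjusted p = 0.682).

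Tlr1 (5:64924679 to 64933563, minus strand), which pairs with TLR2 to bind triacylated lipopeptides, followed the same sort at lower counts. Its 2-week values were 328, 88.5 and 274 normalized counts in MHCII-high replicates 1, 2 and 3, and 15.7, 20.7 and 11 in MHCII-low replicates. At 4 weeks they were 298, 282 and 74.2 in MHCII-high cells, and 0, 1.0 and 21.3 in MHCII-low cells. The controls held 15.6 and 14.6. All 6 MHCII-high libraries lay above all 8 MHCII-low libraries, with replicate 2 at 2 weeks and replicate 3 at 4 weeks the lowest of the MHCII-high values.

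The Tlr1 group means differed 14.6-fold at 2 weeks and 29.3-fold at 4 weeks. The log2 difference at 4 weeks was 5.71 ± 1.01 (limma, adjusted p = 0.00192), and the mean over both times was 4.66 ± 0.71 (limma, adjusted p = 0.000182). At 2 weeks it was 3.62 ± 1.01 and missed the threshold with limma (adjusted p = 0.0562), whereas edgeR (adjusted p = 0.044) and DESeq2 (adjusted p = 0.000502) called it. The 4-week size moved with single MHCII-low libraries, to 4.79 without replicate 1 (limma, adjusted p = 0.0149) and to 7.03 without replicate 3 (limma, adjusted p = 0.000143), which alone of that group had more than 1 read. Behind the low values stand 0 to 40 reads per MHCII-low library. Of the 50-base stretches in annotated Tlr1 transcripts, 13.6% are identical in the paralog Tlr6, so part of the Tlr1 reads could have been assigned to either gene. Tlr6 itself was at 271 to 746 normalized counts in MHCII-high and 404 to 733 in MHCII-low libraries (mean log2 difference -0.22 ± 0.23, limma, adjusted p = 0.647).

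Of the 10 genes, Tlr9 was the 1 called between MHCII-high and MHCII-low cells at 2 weeks, where 2.87% of the 17390 genes tested were called. Tlr1 and Tlr9 were the 2 called at 4 weeks (2.5% of all genes) and for the mean of both times (7.21% of all genes). The median log2 difference of the 10 genes was -0.10 at 2 weeks and 0.07 at 4 weeks, beside 0.08 and -0.03 over all genes tested. The other 8 genes did not reach the threshold between the sorts.

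**Figure D2:**
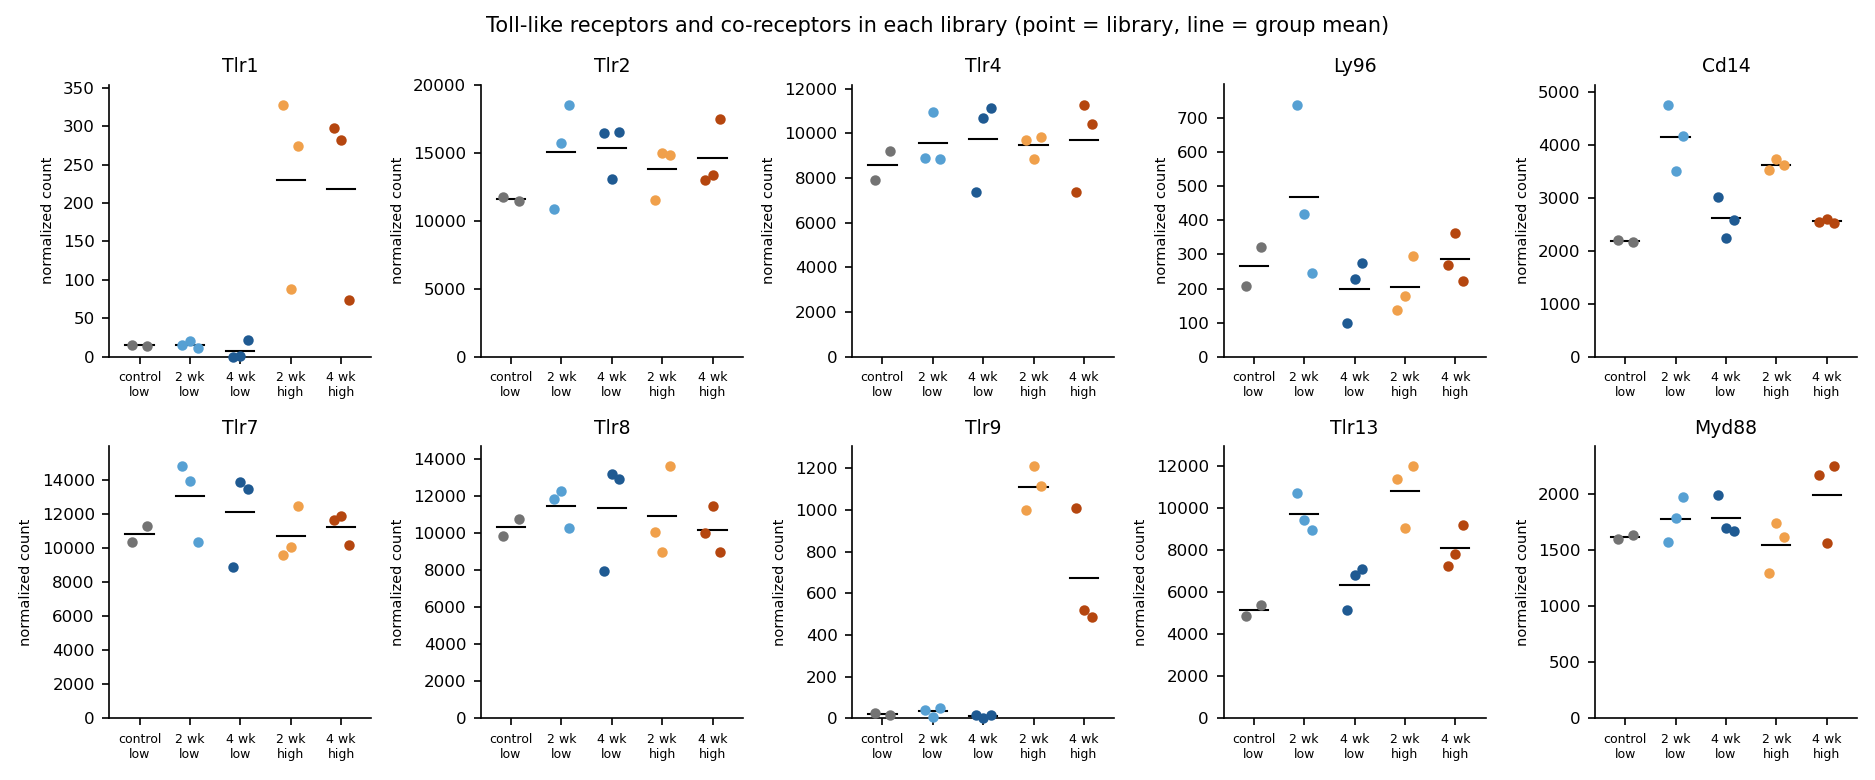
Normalized count of each gene in each library, with 1 point per library and a line at the group mean; the vertical axes start at 0. Tlr9 and Tlr1 are near 0 in all MHCII-low groups and high in both MHCII-high groups, while Tlr13 and Cd14 are highest in both 2-week groups.

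RefSeq promoter windows (build GRCm38.p6, 250 bases before to 50 after the start site) were matched by symbol for 6 of the 10 genes. The windows of Tlr9 (chr9:106222348-106222647, plus strand) and Tlr1 (chr5:64933509-64933808, minus strand) are shown because these genes were the ones higher in MHCII-high cells, and that of Tlr13 (chrX:106143025-106143324, plus strand) because it was higher at 2 weeks. Capitals mark matches on either strand to the PU.1 core GAGGAA, the AP-1 motif TGANTCA, the interferon response element GAAANNGAAA or the NF-kappaB consensus, which in these windows did not overlap each other.
Tlr9: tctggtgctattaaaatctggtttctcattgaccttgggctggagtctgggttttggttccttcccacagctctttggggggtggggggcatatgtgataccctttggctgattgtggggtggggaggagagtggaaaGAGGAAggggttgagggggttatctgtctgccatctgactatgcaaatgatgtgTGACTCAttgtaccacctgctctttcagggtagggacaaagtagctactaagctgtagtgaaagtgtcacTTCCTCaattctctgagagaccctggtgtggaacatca
Tlr1: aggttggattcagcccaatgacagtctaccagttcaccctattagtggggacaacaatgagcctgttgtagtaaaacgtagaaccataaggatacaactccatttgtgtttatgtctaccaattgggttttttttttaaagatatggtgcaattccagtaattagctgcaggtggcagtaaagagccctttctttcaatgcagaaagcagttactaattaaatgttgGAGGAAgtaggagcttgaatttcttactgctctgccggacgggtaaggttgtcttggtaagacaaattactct
Tlr13: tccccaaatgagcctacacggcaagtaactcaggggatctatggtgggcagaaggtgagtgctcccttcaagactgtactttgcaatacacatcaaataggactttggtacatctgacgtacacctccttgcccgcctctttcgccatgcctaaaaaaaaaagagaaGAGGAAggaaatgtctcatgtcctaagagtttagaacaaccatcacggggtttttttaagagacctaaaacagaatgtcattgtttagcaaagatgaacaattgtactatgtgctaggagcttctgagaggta

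The Tlr9 window held the PU.1 core at positions -112 to -107 (plus strand) and 12 to 17 (minus strand) and an AP-1 match at -58 to -52, counted from 0 at the start site. The Tlr1 and Tlr13 windows held 1 PU.1 core each, at -23 to -18 and at -83 to -78, as did the window of Tlr8, which passed in no comparison with limma, at -77 to -72 (minus strand). A second RefSeq start of Tlr1 (chr5:64932650-64932949) had none of the 4 motifs. Among all 32851 windows of this length, 28.28% held the PU.1 core, 7.81% the AP-1 motif, 3.44% the interferon response element and 4.51% the NF-kappaB consensus. Tlr2, which was not called between the sorts, held NF-kappaB matches starting at -173, -172 and -8, and Myd88 an interferon response element at -40 to -31. A match describes the letters of the window and was not tested as a binding site.

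Several marker lists moved with the sort in the same direction as Tlr9 and Tlr1. The neutrophil, T cell, eosinophil, and endothelial cell and fibroblast lists did not, since their sums overlapped between the sorts at both times. At 2 weeks the neutrophil markers summed to 181 to 238 CPM in MHCII-high and 213 to 298 in MHCII-low libraries. The T cell markers summed to 7.89 to 16.8 and 4.41 to 12.7. All 8 dendritic cell markers were in the table, and their summed level was 21.7 to 47.1 CPM in 2-week and 32.2 to 49.96 in 4-week MHCII-high libraries, beside 3.23 to 5.45 (2 weeks), 2.83 to 6.04 (4 weeks) and 6.72 to 7.89 (controls) in MHCII-low libraries. Flt3, a cytokine receptor of dendritic cells, was at 91.7 to 281 normalized counts in MHCII-high libraries and 0 to 17.9 in MHCII-low libraries. Fscn1 and Ccr7 did not overlap between the sorts either, whereas Zbtb46, Xcr1, Clec9a, Cd209a and Batf3 did. Xcr1 was at 5.7 to 137 in MHCII-high and 5.2 to 74.5 in MHCII-low libraries, and Batf3 at 4.7 to 33.6 and 6.4 to 29.2. The 8 B cell markers summed to 30.7 to 47.5 and 29.8 to 95.9 CPM in MHCII-high libraries at 2 and 4 weeks, and to 2.14 to 6.47, 1.77 to 74.5 and 3.75 to 6.37 in MHCII-low libraries at 2 weeks, 4 weeks and in controls. The 8 plasmacytoid dendritic cell markers summed to 45.4 to 69.2 and 53.1 to 95.2 in MHCII-high and to 23.9 to 34.2 in MHCII-low libraries. Tcf4 held most of that sum, at 1619 to 2501 normalized counts in MHCII-high and 736 to 997 in MHCII-low libraries, whereas Bst2 was at 9.3 to 36.5 and 16.4 to 114.9, Klk1 at 0 in all 14 libraries and Siglech at 0 in 9. The 10 monocyte-derived or interstitial macrophage markers summed to 808 to 1677 in MHCII-high and 400 to 882 in MHCII-low libraries. Csf1r, the largest of them in every library, overlapped, at 18286 to 29969 normalized counts in MHCII-high and 12492 to 24959 in MHCII-low libraries. Ly6c2 overlapped too, at few counts. The rest of the list did not overlap, among them Ccr2 at 2852 to 8004 in MHCII-high and 550 to 963 in MHCII-low libraries. For none of these lists was it counted how many of all genes split between the sorts in this way. The alveolar type 2 cell markers, of the surfactant-making epithelium, summed to 158 to 299.9 CPM in MHCII-high and 46.2 to 129 in MHCII-low libraries at 2 weeks, and to 104 to 367 and 48.5 to 123 at 4 weeks. The alveolar macrophage markers went the other way at 2 weeks, at 8288 to 9535 in MHCII-high and 13354 to 16624 in MHCII-low libraries. At 4 weeks their sums overlapped, at 8931 to 13543 and 13380 to 16175, and controls were at 9846 to 12010. Chil3 was the largest of them in every library. Fabp4, Itgax and Ear2 overlapped between the sorts at 2 weeks, Fabp4 at 1019 to 1602 normalized counts in MHCII-high and 755 to 1407 in MHCII-low libraries.

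The B cell sum of 74.5 was that of 4-week MHCII-low replicate 1, where Ighm was at 2127 normalized counts. The mitochondrial ribosomal RNA share was 22.5% to 26.3% in the 2-week MHCII-high and 3.42% to 18.3% in the 2-week MHCII-low libraries, and overlapped between the sorts at 4 weeks. With that share as a covariate the 2-week difference was 6.67 for Tlr9 (limma, adjusted p = 2.24e-05) and 3.85 for Tlr1 (limma, adjusted p = 0.177). The part of any of these cell types in the Tlr9 and Tlr1 differences was not tested.

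**Figure D3:**
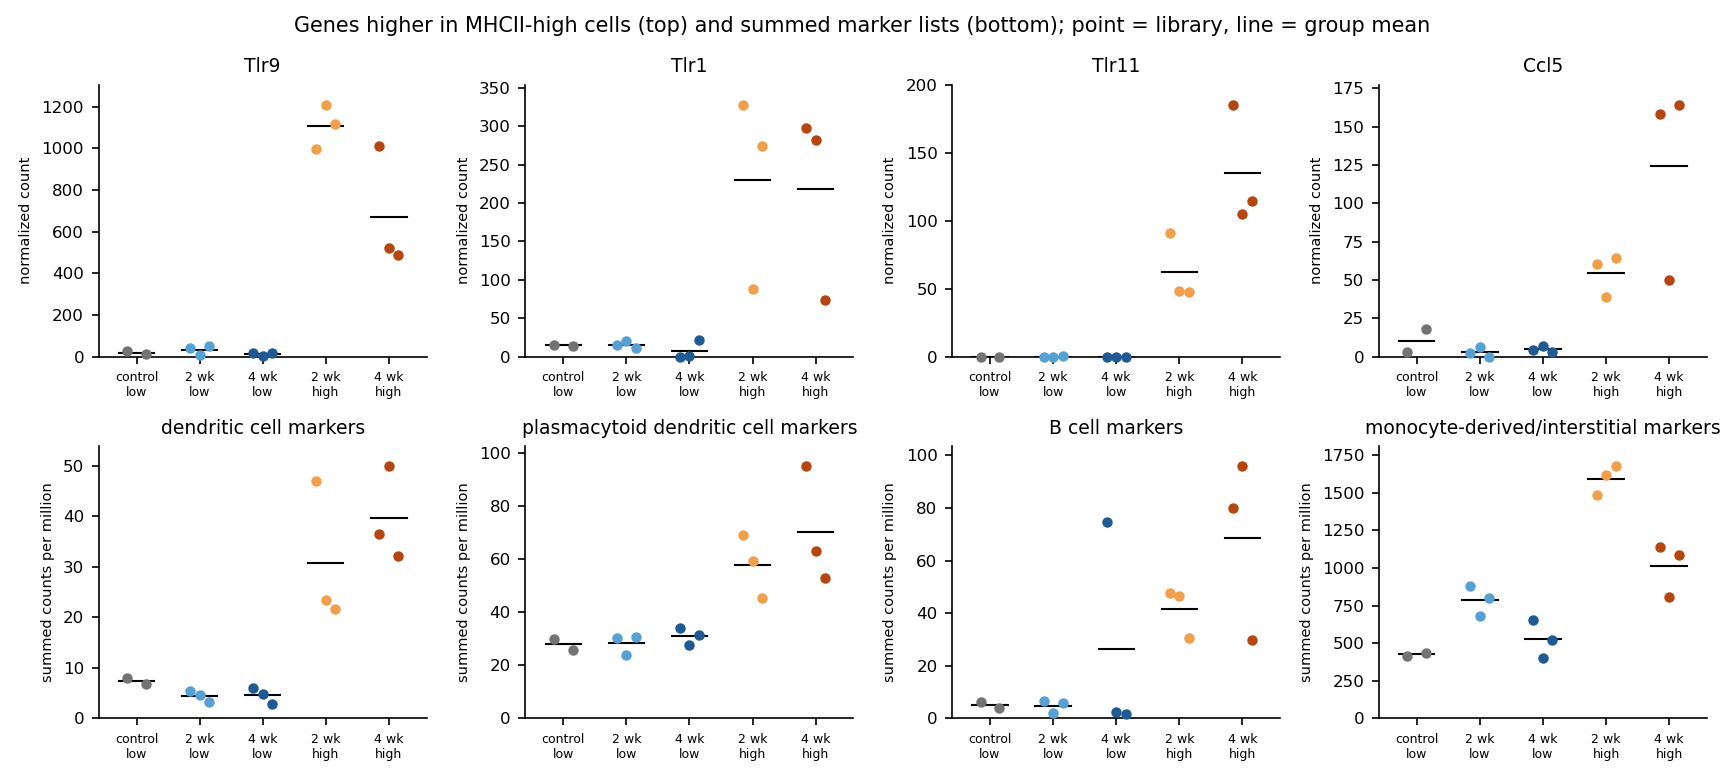
Top, normalized counts of Tlr9, Tlr1, Tlr11 and Ccl5; bottom, summed CPM of 4 marker lists; 1 point per library and a line at the group mean, all axes starting at 0. The 4 genes and the 2 dendritic cell lists do not overlap between the sorts. The B cell sum of 74.5 in 1 MHCII-low library of 4 weeks and the macrophage sums of 2-week MHCII-low and 4-week MHCII-high libraries do.

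Tlr13 and Cd14 were the 2 genes called higher after bleomycin. Tlr13 (X:106143204 to 106160493, plus strand) was at 4892 and 5408 normalized counts in control MHCII-low libraries, and at 10722, 9449 and 8984 in 2-week MHCII-low replicates 1, 2 and 3. By 4 weeks the MHCII-low values were 5167, 6841 and 7100. The 2-week libraries all lay above both controls and above all 4-week MHCII-low libraries, whereas the 4-week range overlapped that of the controls.

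Cd14 (18:36725074 to 36726736, minus strand), whose product hands lipopolysaccharide to TLR4 and MD-2, moved in parallel. Its control values were 2201 and 2166, its 2-week MHCII-low values 4764, 3513 and 4180, and its 4-week MHCII-low values 3019, 2242 and 2590 normalized counts. The 3 groups did not overlap: 2-week libraries were highest, 4-week libraries intermediate and controls lowest.

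Group means of Tlr13 were 1.89 times and those of Cd14 1.90 times as high at 2 weeks as in controls. The log2 differences were 0.91 ± 0.18 for Tlr13 (limma, adjusted p = 0.00743) and 0.92 ± 0.18 for Cd14 (limma, adjusted p = 0.00706), each higher in 3 of 3 libraries. These 2 of 10 genes stand beside 1.91% of all genes called in this comparison, and the median log2 difference of the 10 was 0.30 beside -0.09 over all genes. With 2 controls the calls depended on each of them: without control replicate 1 or 3 the adjusted p was 0.142 or 0.0617 for Tlr13 and 0.088 or 0.109 for Cd14 (limma), at log2 differences of 0.84 to 0.99 and 0.90 to 0.93. With the mitochondrial ribosomal RNA share as a covariate, Cd14 was at 0.78 (limma, adjusted p = 0.0573). That share was 3.42% to 18.3% in the 2-week libraries and 21.7% to 24.1% in controls, and the monocyte-derived or interstitial macrophage markers summed to 677 to 882 and 416 to 434 CPM. The part of either in the Tlr13 and Cd14 differences was not tested.

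**Figure D4:**
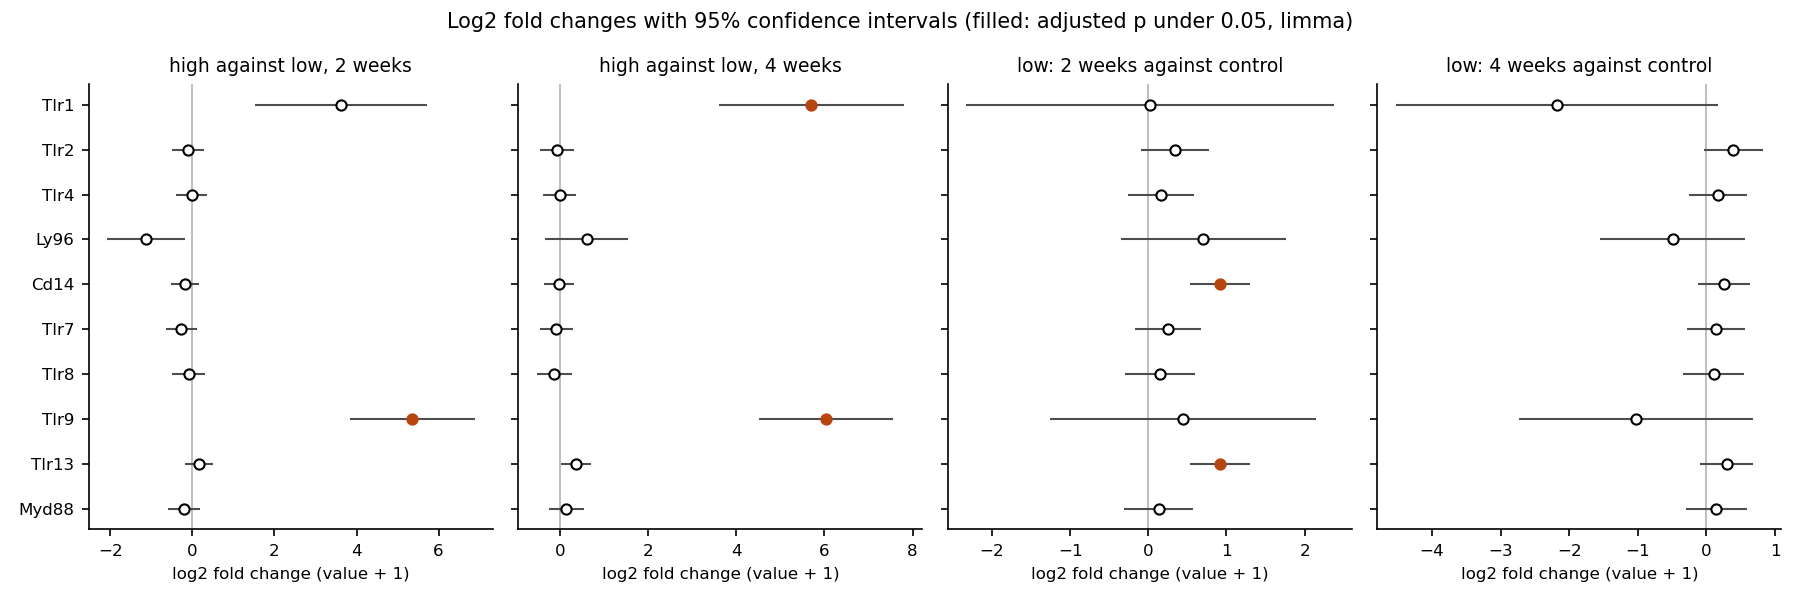
Log2 fold change of each gene on the log2(value + 1) scale with its 95% confidence interval in 4 comparisons; filled points passed an adjusted p of 0.05 with limma. Tlr9 passed in both comparisons of MHCII-high with MHCII-low, Tlr1 at 4 weeks, and Tlr13 and Cd14 in 2-week MHCII-low cells against controls.

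At 4 weeks none of the 10 genes was called against controls with limma, edgeR or DESeq2, and 0 had an unadjusted p under 0.05. Of all 17390 genes, 0.046% were called with limma, 2 genes with edgeR and 77 with DESeq2, and 1065 had an unadjusted limma p under 0.05. Tlr13 was at 0.29 (95% confidence interval -0.09 to 0.68) and Cd14 at 0.25 (-0.13 to 0.63) on the log2 scale. Tlr2 (11780 and 11514 in controls, 16482, 13078 and 16546 at 4 weeks) and Myd88 (1605 and 1634 in controls, 1997, 1702 and 1674 at 4 weeks) were higher in every 4-week than in every control library. Their log2 differences were 0.39 (limma, adjusted p = 0.842) and 0.14 (limma, adjusted p = 0.974), so neither passed the test. How many of all genes split between groups in this way was not counted, for this or any other comparison. The 2 comparisons with controls share the same 2 control libraries.

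Between the times, Cd14 and Tlr13 were lower at 4 than at 2 weeks in MHCII-low cells by values that did not reach the threshold. Cd14 was at -0.67 ± 0.16 on the log2 scale (limma, adjusted p = 0.0586) and Tlr13 at -0.62 ± 0.16 (limma, adjusted p = 0.0943), with no overlap of the 3 libraries of either time. Of the 10 genes, limma and edgeR called 0, DESeq2 called these 2, and 4 had an unadjusted p under 0.05. Of all 17390 genes, 0.857% were called with limma, 138 genes with edgeR and 322 with DESeq2. An unadjusted limma p under 0.05 was found for 1300 of them.

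In MHCII-high cells Cd14 was at 3526, 3736 and 3624 normalized counts at 2 weeks and at 2539, 2603 and 2533 at 4 weeks, a narrow spread within each time. The log2 difference was -0.50 ± 0.16 (limma, adjusted p = 0.139) and passed with DESeq2 alone (adjusted p = 0.0455). Tlr13 was at 11414, 9083 and 12006 at 2 weeks and 7257, 7823 and 9228 at 4 weeks, ranges that overlapped, with a log2 difference of -0.42 ± 0.16 (limma, adjusted p = 0.243). Here limma and edgeR called 0 of the 10 genes, DESeq2 called 1, and 2 had an unadjusted p under 0.05. Of all 17390 genes, 1.07% were called with limma, 112 genes with edgeR and 638 with DESeq2. An unadjusted limma p under 0.05 was found for 2426 of them.

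Between the sorts, neither Tlr13 nor Cd14 passed the test. Tlr13 in 4-week MHCII-high cells lay above 4-week MHCII-low cells in every library (ratio of means 1.27), with a log2 difference of 0.35 (95% confidence interval 0.01 to 0.70, limma, adjusted p = 0.311). Cd14 differed by -0.02 at 4 weeks (-0.36 to 0.32) and by -0.18 at 2 weeks (-0.52 to 0.16).

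The surface receptors Tlr2 (3:83836272 to 83841767, minus strand) and Tlr4 (4:66827584 to 66930284, plus strand) passed in none of the 8 comparisons with limma. Tlr4 was at 7910 and 9222 normalized counts in controls, 8921, 10967 and 8852 in 2-week MHCII-low, 7377, 10703 and 11148 in 4-week MHCII-low, 9690, 8870 and 9848 in 2-week MHCII-high and 7384, 11289 and 10410 in 4-week MHCII-high libraries. All pairs of groups compared overlapped. Its log2 difference between the sorts, averaged over both times, was -0.01 (95% confidence interval -0.28 to 0.26). Tlr2 ranged from 10912 to 18579 among the 2-week MHCII-low and from 11537 to 15038 among the 2-week MHCII-high libraries, and its difference between the sorts was -0.09 (-0.36 to 0.19).

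Tlr7 and Tlr8 lie 40599 bases apart on the X chromosome of GRCm38, Tlr8 at 167242696 to 167264329 and Tlr7 at 167304929 to 167330558, both on the minus strand. Tlr7 was between 8913 and 14805 normalized counts and Tlr8 between 7948 and 13636.6 over the 14 libraries. Both were lowest in 4-week MHCII-low replicate 1 (8913 and 7948). Across the 14 libraries, log2 values of Tlr7 and Tlr8 gave a Pearson r of 0.868, as a description of libraries that also share depth and group. Between the sorts, averaged over both times, Tlr7 differed by -0.18 (95% confidence interval -0.45 to 0.09) and Tlr8 by -0.11 (-0.39 to 0.17). With each library's trend on GC content removed, Tlr7 at 2 weeks (-0.69, limma, adjusted p = 0.0109) and over both times (-0.49, limma, adjusted p = 0.00774) and Tlr8 over both times (-0.42, limma, adjusted p = 0.028) passed as lower in MHCII-high cells. That correction also moved the median of all genes by -0.38 at 2 weeks and by -0.24 over both times. Relative to that median, Tlr7 was at -0.39 and -0.27, and Tlr8 over both times at -0.20.

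Ly96 (1:16688051 to 16709611, plus strand) and Myd88 passed in none of the 8 comparisons with limma. Ly96 was at 208 and 322 normalized counts in controls, 738, 419 and 245 in 2-week MHCII-low, 99.5, 227 and 274 in 4-week MHCII-low, 137, 178 and 295 in 2-week MHCII-high and 269, 364 and 223 in 4-week MHCII-high libraries. Its log2 difference between the sorts was -1.13 ± 0.46 at 2 weeks (limma, adjusted p = 0.222) and 0.60 ± 0.46 at 4 weeks (limma, adjusted p = 0.583). With the GC trend removed the 2-week value was -1.52 (limma, adjusted p = 0.0317), or -1.21 relative to the median gene.

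The interaction of MHCII level and time tests whether the sort difference changed between 2 and 4 weeks. For Ly96 it was 1.73 ± 0.64 (limma, adjusted p = 0.7). It was 0.67 for Tlr9 (95% confidence interval -1.48 to 2.82). Of the 10 genes, 0 were called by limma, edgeR or DESeq2 and 1 had an unadjusted p under 0.05. Of all 17390 genes 0% were called with limma and edgeR, where 987 and 1103 genes had an unadjusted p under 0.05, and DESeq2 called 56.

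Myd88 was at 1605 and 1634 normalized counts in controls, 1573, 1793 and 1978 in 2-week MHCII-low, 1294, 1742 and 1618 in 2-week MHCII-high and 2171, 1566 and 2253 in 4-week MHCII-high libraries. These groups overlapped, and its mean difference between the sorts was -0.03 (95% confidence interval -0.31 to 0.25). The gene (9:119335934 to 119341411, minus strand) overlaps Acaa1a and Slc22a14 in GENCODE, and 7.42% of its 50-base stretches are also in Acaa1a transcripts, so its counts are uncertain to that extent. None of the other 9 genes overlaps an annotated gene.

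Of the other Toll-like receptors, 5 were listed and tested (Tlr3, Tlr5, Tlr6, Tlr11 and Tlr12). Tlr11, a receptor for protozoan profilin, was higher in MHCII-high cells, at 91.1, 48.3 and 47.8 normalized counts in 2-week and 185, 105 and 114 in 4-week MHCII-high libraries. In the 8 MHCII-low libraries it was at 0, except 0.6 in 2-week replicate 3. No fold is given against these groups, and since the gene passed the filter on low values only through the MHCII-high libraries, its limma calls between the sorts (adjusted p = 0.00182 at 2 weeks and 0.000161 at 4 weeks) describe these values and add no support to them. Tlr3 and Tlr6 passed in no comparison, nor did Tlr12, which was at 0 to 31.1 in all libraries.

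Tlr5, the receptor for flagellin, fell at 2 weeks, where Tlr13 and Cd14 were higher. It was at 1906 and 1606 normalized counts in controls and at 401, 409 and 283 in 2-week MHCII-low libraries, and rose again to 1309, 1174 and 871 at 4 weeks. In MHCII-high cells it was at 172, 141 and 239 at 2 weeks and 1342, 676 and 362 at 4 weeks. Against controls the 2-week MHCII-low difference was -2.28 ± 0.40 (limma, adjusted p = 0.00217). From 2 to 4 weeks Tlr5 rose by 1.61 ± 0.36 in MHCII-low cells (limma, adjusted p = 0.0292) and by 1.94 ± 0.36 in MHCII-high cells (limma, adjusted p = 0.00951). The call against controls was lost without control replicate 1 (limma, adjusted p = 0.0659), and the MHCII-low rise was lost without any 1 of 5 of its 6 libraries, with limma adjusted p up to 0.166. The MHCII-high rise was lost without 2-week replicate 2 (limma, adjusted p = 0.0622). Between the sorts, Tlr5 was lower in MHCII-high cells for the mean of both times, at -0.84 ± 0.25, close to the threshold (limma, adjusted p = 0.0485). It did not pass at 2 weeks (limma, adjusted p = 0.159) or at 4 weeks (limma, adjusted p = 0.394).

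Of the other pathway genes, the other receptors included, most did not pass a test. Over 6 lists holding 71 genes, of which 67 were tested, 2 were higher and 0 lower with limma between the sorts at 2 weeks and again at 4 weeks (Tlr11 and Ccl5), beside 2.87% and 2.5% of all genes, and 6 were higher and 2 lower for the mean of both times, beside 7.21%. Ccl5 too passed the filter only through the MHCII-high libraries, and at each time its call was kept in 1 of the 6 fits that left out a library, with limma adjusted p up to 0.102 at 2 weeks and 0.0956 at 4 weeks. None of the 10 accessory and trafficking genes passed between the sorts with limma. Among them Unc93b1, which carries the endosomal receptors to their compartment, was at 8401 to 12442 in MHCII-low and 9171 to 9638 in MHCII-high cells at 2 weeks. Of the 18 adaptors and kinases, 1 fell: Ticam1, the TRIF adaptor of TLR3 and TLR4, by 0.62 ± 0.15 for the mean of both times (limma, adjusted p = 0.0115). With the GC trend removed, 3 of the 67 genes were higher and 13 lower for that mean, and 2 higher and 12 lower at 2 weeks. In the same fit 2134 and 1850 of all 17390 genes were lower, with the median gene moved by -0.24 and -0.38.

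The next differences are for the mean of both times, where 7.21% of all 17390 genes tested were called. Of the 9 transcription factors, Rel and Irf7 were higher in MHCII-high cells, by 0.48 ± 0.13 (limma, adjusted p = 0.0245) and 0.97 ± 0.27 (limma, adjusted p = 0.0331). Of the 10 inhibitors tested, 1 rose, Nlrc3 by 1.35 ± 0.40 (limma, adjusted p = 0.0422). Of the 15 target genes tested, 2 rose. Ccl5, a chemokine, was at 39.3 to 164 normalized counts in MHCII-high and 0 to 18.1 in MHCII-low libraries, with a mean difference of 4.27 ± 0.72 (limma, adjusted p = 0.00049). Il1b rose by 0.75 ± 0.21 (limma, adjusted p = 0.0335), with 1820 to 2420 normalized counts in MHCII-high and 1228 to 2011 in MHCII-low cells at 2 weeks. At 2 weeks alone and at 4 weeks alone, Rel, Irf7, Nlrc3 and Il1b did not pass with limma. Of 24 alternatives for the mean of both times, Ticam1 passed in 23, whereas Irf7 passed in 15, Rel in 14, Il1b in 12, Nlrc3 in 10 and Tlr5 in 9. Ccl5 passed in all 24, but it passed the filter on low values only through the MHCII-high libraries. Its calls between the sorts therefore describe its values and add no support to them.

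Against controls, 2 of the 67 genes fell in 2-week MHCII-low cells, Tlr5 and Cd36, and 0 rose. This stands beside 1.91% of all 17390 genes called in that comparison, 258 higher and 74 lower. Cd36, a scavenger receptor that works with TLR2 and TLR6, was at 16560 and 11939 normalized counts in controls and 7196, 6769 and 3624 at 2 weeks, a log2 difference of -1.33 ± 0.26 (limma, adjusted p = 0.00619) that was lost without control replicate 1 (limma, adjusted p = 0.2). At 4 weeks 0 of the 67 passed with limma, edgeR or DESeq2, beside 8, 2 and 77 of all genes. Il1b fell from 2 to 4 weeks by 1.69 ± 0.30 in MHCII-low cells (limma, adjusted p = 0.00386) and fell by 1.37 ± 0.30 in MHCII-high cells (limma, adjusted p = 0.0276), the latter lost without any 1 of 5 of its 6 libraries. Pik3ap1, an adaptor that links the receptors to phosphoinositide signalling, rose by 0.81 ± 0.19 in MHCII-high cells (limma, adjusted p = 0.037), a call lost without any 1 of 4 of its 6 libraries, with limma adjusted p up to 0.108 and a difference of 0.58 without 4-week replicate 3.

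**Figure D5:**
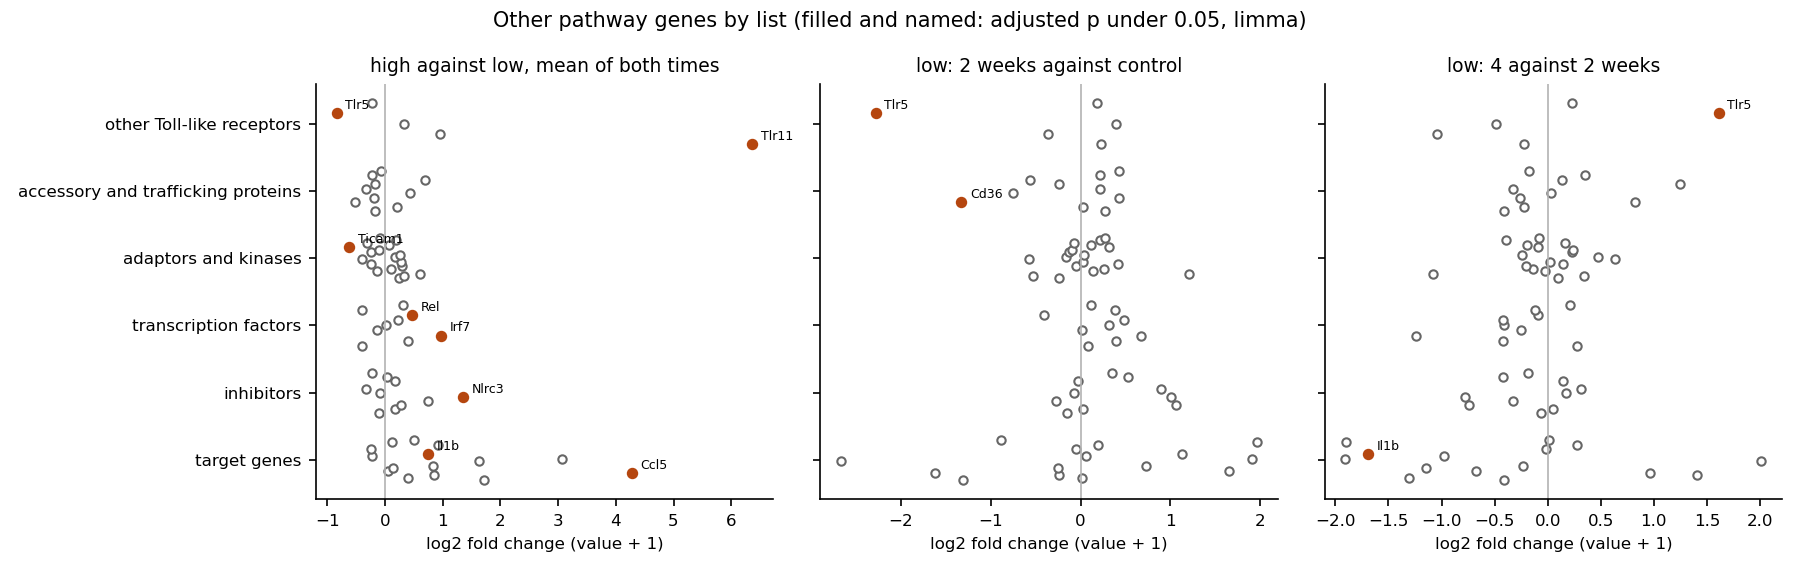
Log2 fold change of each tested pathway gene by list in 3 comparisons, with 1 point per gene; filled, named points passed an adjusted p of 0.05 with limma. Tlr11 and Ccl5 stand to the right in MHCII-high against MHCII-low cells, and Tlr5 falls at 2 weeks and rises from 2 to 4 weeks.

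The genes whose log2 levels were most like each receptor over the 14 libraries were taken as the 2 of 11571 candidates with the highest Pearson r. For Tlr9 these were H2-Eb1 (r = 0.974), an MHC class II gene tied to the sort itself, and Adam19 (r = 0.968). For Tlr1 they were Ccl22 (r = 0.934), at 1674 to 4454 normalized counts in MHCII-high and 15.4 to 385 in MHCII-low libraries, and Il18rap (r = 0.933). Libraries fall into 2 clusters by sort for these genes, and r runs over both. Tlr13 was most like Clec5a (r = 0.962) and Nrp2 (r = 0.952), and Cd14 was most like Csf2rb (r = 0.941) and Ctsk (r = 0.94). Tlr7 was most like Rtn3 (r = 0.914) and Olr1 (r = 0.912), and Tlr8 was most like Cript (r = 0.967) and Olr1 (r = 0.876). For Tlr2 the values were 0.863 (Gpr108) and 0.845 (Drap1), for Tlr4 0.889 (Lmbrd2, the second of its pair), for Ly96 0.898 (Cisd2) and 0.884 (Pnn), and for Myd88 0.883 (Adck2) and 0.88 (Zfyve21).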

How the data were processed

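Per the labels' protocols, enzymatically dissociated lungs were stained and sorted for SiglecF, CD11c and MHCII level, mRNA was amplified as cDNA, and sequencing libraries came from a transposase kit. Molecular identifiers are not mentioned, so read counts are not counts of independent molecules and any interval or detection limit covers counting error only. The submitters' processing notes name STAR, DESeq2 and the build mm10; their versions are not given here.

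The authors deposited normalized counts, a signal of gene counts divided by a factor per library and rounded to 1 decimal, per the file headers and the values. The GC percent and exon length the authors deposited were used for a GC check and for levels per kb. From the steps of low values, whole reads were recovered (within 0.05) for 99.61% to 100% of low values per library, and in control replicate 1 the step of 0.39 is close to the rounding. Totals per library were 15106415 to 88059675 recovered reads, so a count of 0 allows up to 3 reads, or 1.17 to 6.71 normalized counts. The 652 genes without a symbol kept their Ensembl identifier.

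The 17390 genes that reached 10 normalized counts in 2 or more libraries were tested with limma 3.58.1 (R 4.3.3) on log2(value + 1), with the variance allowed to follow the mean, all 14 libraries in 1 fit with 1 coefficient per group, in 8 comparisons, with Benjamini-Hochberg adjustment over all genes tested and a threshold of 0.05. Fold changes on that scale understate low genes. Alternatives were edgeR 4.0.16 and DESeq2 1.42.0 on recovered reads, TMM scaling, pseudocounts of 0.5 and 10, no filter or 50 in 3 libraries, the mitochondrial ribosomal RNA share as a covariate, the GC trend removed (lowess span 0.3), the replicate number as a block, the groups compared alone and each replicate left out. The scripts were tested on simulated data.

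All 10 members are named; up to 2 genes with the smallest p per pathway list and comparison are named where called; and the 2 genes most like each member by Pearson r were taken among genes with mean log2 of at least 5. The first gene of the Tlr4 pair is not reported here. Members and lists were chosen with earlier results of these data known, and so support nothing independently. Coordinates are on GRCm38, where GENCODE gives the same span for 9 of 10 members. Marker sums are CPM of recovered reads. Python 3.11.15, pandas 2.3.3 and matplotlib 3.10.9 were used.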

Additional observations from a re-analysis of the deposited data

How the results depend on the processing

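Tlr9 passed the threshold between MHCII-high and MHCII-low cells in all 18 alternatives at 2 weeks, all 18 at 4 weeks and all 24 for the mean of both times, and Tlr1 in 18 at 4 weeks, 24 for the mean and 5 at 2 weeks. The count of 10 genes called at 2 weeks was 2 with a pseudocount of 10, edgeR, DESeq2 or only the groups compared, and 4 with the GC trend removed, which adds Tlr1, Tlr7 and Ly96 to Tlr9. For the mean of both times it was 4 with the GC trend removed, where Tlr13 turned from 0.25 to -0.009 (limma, adjusted p = 0.969); that correction moved the median gene by -0.24, and relative to the median gene Tlr13 was at 0.21. For 2-week MHCII-low cells against controls it was 1 with the mitochondrial ribosomal RNA share as a covariate and 0 to 2 when each library was left out in turn; leaving out a control leaves 1, which is assumed to vary like the other groups. For 4 against 2 weeks in MHCII-low cells it was 1 with the filter of 50 in 3 libraries, the mitochondrial covariate or the GC trend removed, 2 with DESeq2 and 0 to 1 when a library was left out; in MHCII-high cells it was 1 with DESeq2. The cause was not tested. Deviations of same-numbered MHCII-high and MHCII-low libraries from their group means had r = 0.107, 0.068 and 0.025 at 2 weeks and 0.009, 0.034 and 0.015 at 4 weeks. For differently numbered libraries r ran from -0.124 to 0.077. The labels do not say whether same-numbered libraries came from the same animal, and such r cannot settle it. With the replicate block, 1 gene was called at 2 weeks, 2 at 4 weeks, 2 for the mean and 2 for 2-week MHCII-low cells against controls, 0 in the other 4 comparisons, and a block within each time, chosen after seeing the data, changed none of the counts between the sorts.

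Over all genes, DESeq2 called 1055 at 2 weeks between the sorts and the GC-corrected fit 2245, beside 499 (398 higher and 101 lower in MHCII-high cells) in the limma fit; with the GC trend removed 395 were higher. The MHCII-low values of Tlr1, Tlr9 and Tlr11 rest on few reads, as do the values of Tlr12 in all libraries.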
